A study of Mus musculus with 8 samples.

Results

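The genes described here encode proteins of the lysosome, the acidic compartment in which cells break down proteins, glycans and lipids. They are 39 genes of the 32285 in the expression tables, chosen by name: 11 cathepsins, 3 other proteases and protease regulators, 10 hydrolases of glycans and glycolipids, 7 genes of lipid handling, 7 of lysosomal membrane proteins, and Tfeb, a transcription factor of lysosomal genes. The rule takes them by name and reads no measured value, but the set was proposed with earlier results of these data known. All 39 were found in the tables. Mice on a C57BL6/J background were used at 6 months, and nuclei of a hemisphere, from which the olfactory bulb and cerebellum had been taken off, were sequenced singly. WT, Cnp-/-, 5xFAD and Cnp-/-;5xFAD mice gave 2 libraries each, so the study compared loss of Cnp, a gene of myelinating oligodendrocytes whose null allele leads to myelin defects, with and without amyloid pathology. The 5xFAD transgenes, human genes with familial Alzheimer's disease mutations, are driven by the neuronal Thy1 promoter, so the amyloid comes from neurons. Levels below are in CPM, the unique molecular identifiers (UMIs) of a gene scaled to all UMIs that the nuclei of 1 cell type or state gave in 1 library, and the library was the replicate. The study's reporting summary says that animals were pooled for each single-cell replicate, while its methods describe pooling for another dataset, so p-values here measure the spread between libraries.

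Lysosomal proteases, glycosidases and lipid hydrolases are made at the endoplasmic reticulum, sorted to the lysosome and activated there at low pH. TFEB and its relatives TFE3 and MITF bind E-box-like motifs in the promoters of many lysosomal genes and raise their transcription together. In the brain, microglia take up and degrade myelin debris and amyloid, and the state termed disease-associated microglia (DAM) is known for genes of lysosomes and lipid metabolism. Loss of single members such as Ppt1, Cln3, Tpp1, Grn, Hexa or Npc1 causes lysosomal storage disease.

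The promoters of some members carry the E-box CACGTG, a core sequence of TFEB binding sites. RefSeq gave 42 start sites for 36 of the 39 members on GRCm38.p6, and Ctsb, Ctsh and Npc1 had no entry. A gene was counted where any of its windows, from 250 bases before to 50 bases after a start, held the motif. The palindrome CACGTG was present in 13 of 36 members (36.1%) and in 2187 of 27025 genes (8.09%). The longer palindrome TCACGTGA, which contains CACGTG, was present in 5 members (Ctsa, Ctsd, Gla, Cln3 and Mcoln1, 13.9%) and in 304 of all genes (1.12%). The RefSeq start lay more than 100 bases inside the GENCODE gene for 13 of the 42 starts. Such starts carried the motif in 6 of the 13 members, at 2581 bases inside the gene for Cln3, 900 for Ctsa, 721 for Lgmn, 370 for Ctsl, 211 for Ctsd and 120 for Gla, and they include 4 of the 5 members with TCACGTGA. Cln3, Ctsa and Lgmn each had a second start within 100 bases of the GENCODE 5′ end whose window held no copy. The 2 stretches below, the 100 bases before the start, are shown because Glb1 was lower in 1 microglial state and Lamp1 has the most copies in its window, and both starts lie within 2 bases of the 5′ end of the GENCODE gene. Capitals mark CACGTG. They lie at chr9:114400978-114401077 for Glb1 and chr8:13159061-13159160 for Lamp1, both on the plus strand, and each is written 5′ to 3′ in the direction of transcription.
Glb1: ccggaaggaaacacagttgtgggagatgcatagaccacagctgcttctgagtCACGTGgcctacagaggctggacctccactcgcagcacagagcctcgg
Lamp1: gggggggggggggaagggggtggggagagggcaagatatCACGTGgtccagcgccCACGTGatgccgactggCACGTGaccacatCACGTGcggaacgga
The motif began 48 bases before the start in Glb1, and in Lamp1 its 4 copies began 61, 45, 28 and 15 bases before the start. A match of letters does not show that a factor binds there.

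The 8 libraries held 6801 to 8824 nuclei and 68905044 to 82399061 UMIs each. Cnp itself followed the labels: in mature oligodendrocytes (MOL) it was at 283 and 321 CPM in WT, 219 and 265 in 5xFAD, 23.1 and 23.2 in Cnp-/- and 24.0 and 32.8 in Cnp-/-;5xFAD libraries. The authors' separate table of microglia and macrophages held 2291 nuclei with a median of 1327 UMIs. Its states were taken as the authors annotated them and used where a library had at least 20 nuclei: homeostatic microglia in 8 libraries (48 to 199 nuclei), amyloid-DAM in the 5xFAD and Cnp-/-;5xFAD libraries (112 to 184), myelin-DAM in the Cnp-/- and Cnp-/-;5xFAD libraries (36 to 83), microglia enriched in myelin transcripts (MyTE) in 6 libraries (20 to 59) and macrophages in 5 libraries (24 to 57). The summed level of 10 microglia markers was 8899 to 10771 CPM in homeostatic microglia, 5721 to 6577 in amyloid-DAM, 4537 to 6360 in myelin-DAM, 3917 to 4860 in macrophages and 2938 to 3285 in MyTE. The 8 measured DAM markers summed to 223 to 817 CPM in homeostatic microglia, 1106 to 2031 in amyloid-DAM and 1718 to 2958 in myelin-DAM, and 7 oligodendrocyte markers reached 9050 to 12469 CPM in MyTE against at most 255 in homeostatic microglia.

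Among the cell classes, lysosomal transcripts took the largest share of UMIs in microglia. In this comparison of classes, microglia are those of the authors' annotation of all nuclei. They include the macrophages and 181 nuclei outside the separate set of microglia and macrophages. The 7 macrophage markers summed to 375 to 4004 CPM in this class. Summed over the 39 members they were 0.608% ± 0.083 (SD, n = 8 libraries) of UMIs in microglia, 0.331% ± 0.102 in astrocytes, 0.268% ± 0.034 in endothelial cells, 0.191% ± 0.016 in newly formed oligodendrocytes (NFOL), 0.190% ± 0.007 in MOL, 0.121% ± 0.014 in oligodendrocyte precursors (OPC) and 0.0773% ± 0.0058 in neurons. These shares are relative to the other transcripts of the same class. The second place of astrocytes rested on Cst3, the member with the most UMIs there and in endothelial cells. Without Cst3 astrocytes were at 0.190% ± 0.024 and endothelial cells at 0.203% ± 0.013.

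**Figure D1:**
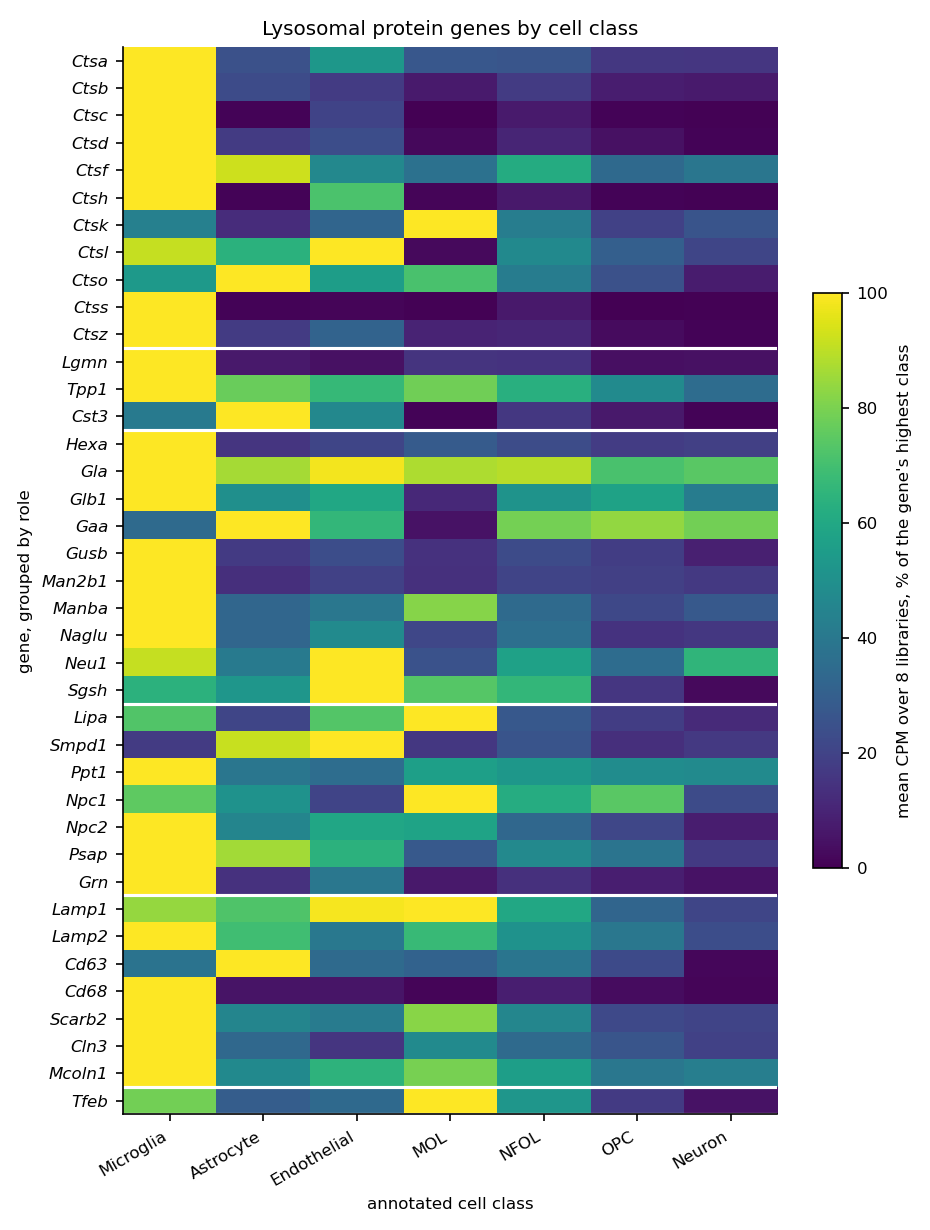
Mean CPM of each of the 39 lysosomal genes (rows) in each of 7 cell classes (columns) over 8 libraries, coloured relative to the class with the highest mean for that gene. Most rows peak in the microglia column, while Cst3 and Cd63 peak in astrocytes and Lamp1, Lipa, Npc1 and Tfeb in MOL.

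Of the 39 members, 26 had their highest mean level in microglia, as did 23.9% of the 19559 genes with a mean of at least 1 CPM in a class, and 14 were above every other class with no overlap between libraries, as were 5.36% of these genes. These 14 were the cathepsins Ctsa, Ctsb, Ctsc, Ctsd, Ctss and Ctsz, the protease Lgmn, the glycosidases Hexa, Glb1, Gusb and Man2b1, and Cd68, Grn and Ppt1. The widest gap was that of Ctss, a cysteine protease that trims the invariant chain in antigen presentation, with 438 ± 37 CPM in microglia against 30.7 ± 17.8 in NFOL, the next class (14.2 times). Cd68, a glycoprotein of late endosomes and lysosomes in phagocytes, was 11.8 times higher in microglia than in the next class, Lgmn, an asparaginyl endopeptidase that activates cathepsins, 6.65 times and Ctsc, a dipeptidyl peptidase, 4.95 times. The class includes macrophages, in which Ctsc was higher than in homeostatic microglia without overlap, as given below. NFOL nuclei also carried 151 to 699 CPM of summed microglia markers, against 4717 to 7514 in microglia, and their part in these second places was not tested.

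The other 13 members had their highest mean outside microglia. Cst3, which encodes the secreted cathepsin inhibitor cystatin C, was at 1407 ± 782 CPM in astrocytes and 655 ± 240 in endothelial cells. Cd63, a tetraspanin of late endosomes, was the member that stood above every other class in astrocytes in all libraries, where 3.15% of genes did so, with 131 ± 49 CPM against 51.1 in NFOL. NFOL nuclei carried 1014 to 2894 CPM of summed astrocyte markers, against 7439 to 10485 in astrocytes, and their part in this second place was not tested. The cysteine protease Ctso and the acid α-glucosidase Gaa also had their highest mean in astrocytes. Ctsl, Neu1, Sgsh and Smpd1 were highest in endothelial cells, and Ctsk, Lamp1, Lipa, Npc1 and Tfeb in MOL. The first 2 classes could be close. Lamp1, a main membrane glycoprotein of lysosomes, had 171 CPM in MOL and 169 in endothelial cells. Among the members highest in microglia, Gla, the α-galactosidase, had 4.42 CPM there and 4.33 in endothelial cells.

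The microglial states were compared next, each with homeostatic microglia of the same libraries. Because the authors found these states by clustering the same counts, no p-value is given. Fold changes are log2 estimates ± SE from edgeR with library as a block, and a member is counted where the CPM of both states do not overlap between libraries. In amyloid-DAM, 6 of 30 members that passed the filter on low counts were higher without overlap (Ctsb, Cd68, Ctsd, Ppt1, Gusb and Lamp2), as were 6.79% of 3977 genes. Another 4 were lower (Ctss, Lgmn, Man2b1 and Psap), as were 7.69% of genes. The median log2 fold change was 0.12 over the 30 members and 0.02 over all genes. Both directions occurred among the proteases. Read within libraries, 10 members were higher in amyloid-DAM in each of the 4 libraries (16.6% of genes were) and 5 lower (15.1% of genes were). The 5 of 30 lower members thus lay near the share of all genes. The lower ones were the 4 above and Cst3, which had 672, 1096, 283 and 1094 CPM in homeostatic microglia and 446, 519, 220 and 663 in amyloid-DAM (-0.74 ± 0.11). Its levels differed so much between libraries that the states overlapped, and its estimate was the lowest of the 5. The higher ones beyond the 6 above were Ctsz, Ctsl, Manba and Lipa, with estimates of 0.81 ± 0.19 for Ctsz and 0.74 ± 0.22 for Ctsl.

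Ctsb, a cysteine protease (chr14:63122462-63145923 in GRCm38, plus strand), differed most between amyloid-DAM and homeostatic microglia. It was at 198 and 336 CPM in homeostatic microglia of 5xFAD and 261 and 304 of Cnp-/-;5xFAD libraries, and at 531 and 642, and 610 and 739, in amyloid-DAM of the same libraries. Every amyloid-DAM profile was above every homeostatic one, WT and Cnp-/- included (177 to 359 CPM), and the log2 fold change was 1.21 ± 0.13. Cd68 was at 56.7, 46.4, 17.0 and 47.3 CPM in homeostatic microglia of 5xFAD 1, 5xFAD 2, Cnp-/-;5xFAD 1 and Cnp-/-;5xFAD 2, and at 82.0, 123, 62.3 and 131 CPM in amyloid-DAM. It was higher in amyloid-DAM in each library, with a log2 fold change of 1.17 ± 0.31, but these levels rest on 3 to 14 UMIs in homeostatic microglia and 15 to 23 in amyloid-DAM. Cd68 passed the filter on low counts here and not in the other comparisons with homeostatic microglia, so its place among the higher members is a description that the filter helped to set.

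Ctsd, the main aspartic protease of lysosomes (chr7:142375911-142388038, minus strand), had 381, 348, 278 and 405 CPM in homeostatic microglia and 489, 647, 498 and 787 in amyloid-DAM of these 4 libraries (0.74 ± 0.12). Its lowest amyloid-DAM value thus lay above the highest homeostatic one of these libraries, and also above the 468 CPM of homeostatic microglia in WT 2. Ppt1, which removes palmitate from proteins, had 158, 186, 210 and 155 CPM in homeostatic microglia and 268, 301, 220 and 256 in amyloid-DAM (0.56 ± 0.17). Homeostatic microglia of Cnp-/- 2 had more, 347 CPM, and by means over nuclei Ppt1 and Psap overlapped between the states. The differences of Gusb, a β-glucuronidase (0.51 ± 0.18), and of Lamp2, a membrane glycoprotein required for autophagy (0.31 ± 0.14), were smaller, with 195 to 232 against 119 to 182 CPM and 336 to 419 against 263 to 325 CPM.

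Among the lower members, Ctss had 729, 551, 674 and 736 CPM in homeostatic microglia and 453, 474, 507 and 518 in amyloid-DAM, with an estimate of -0.47 ± 0.11. Lgmn had 988, 887, 991 and 1331 CPM in homeostatic microglia and 824, 681, 635 and 635 in amyloid-DAM (-0.55 ± 0.09). Both were lower in amyloid-DAM in each of the 4 libraries. Man2b1, the lysosomal α-mannosidase (-0.41 ± 0.16), and Psap, the precursor of the saposins that assist sphingolipid breakdown (-0.34 ± 0.14), were also lower, by gaps of 259 against 223 and 362 against 357 CPM between the nearest values. Of the 10 microglia markers, 8 were also lower in amyloid-DAM without overlap, and their part in the lower members was not tested. The endothelial marker Flt1 was higher in amyloid-DAM without overlap, at 162 to 262 against 20.2 to 85.0 CPM (1.95 ± 0.25), and its part was not tested either. It alone of the 3 endothelial markers passed the filter on low counts.

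**Figure D2:**
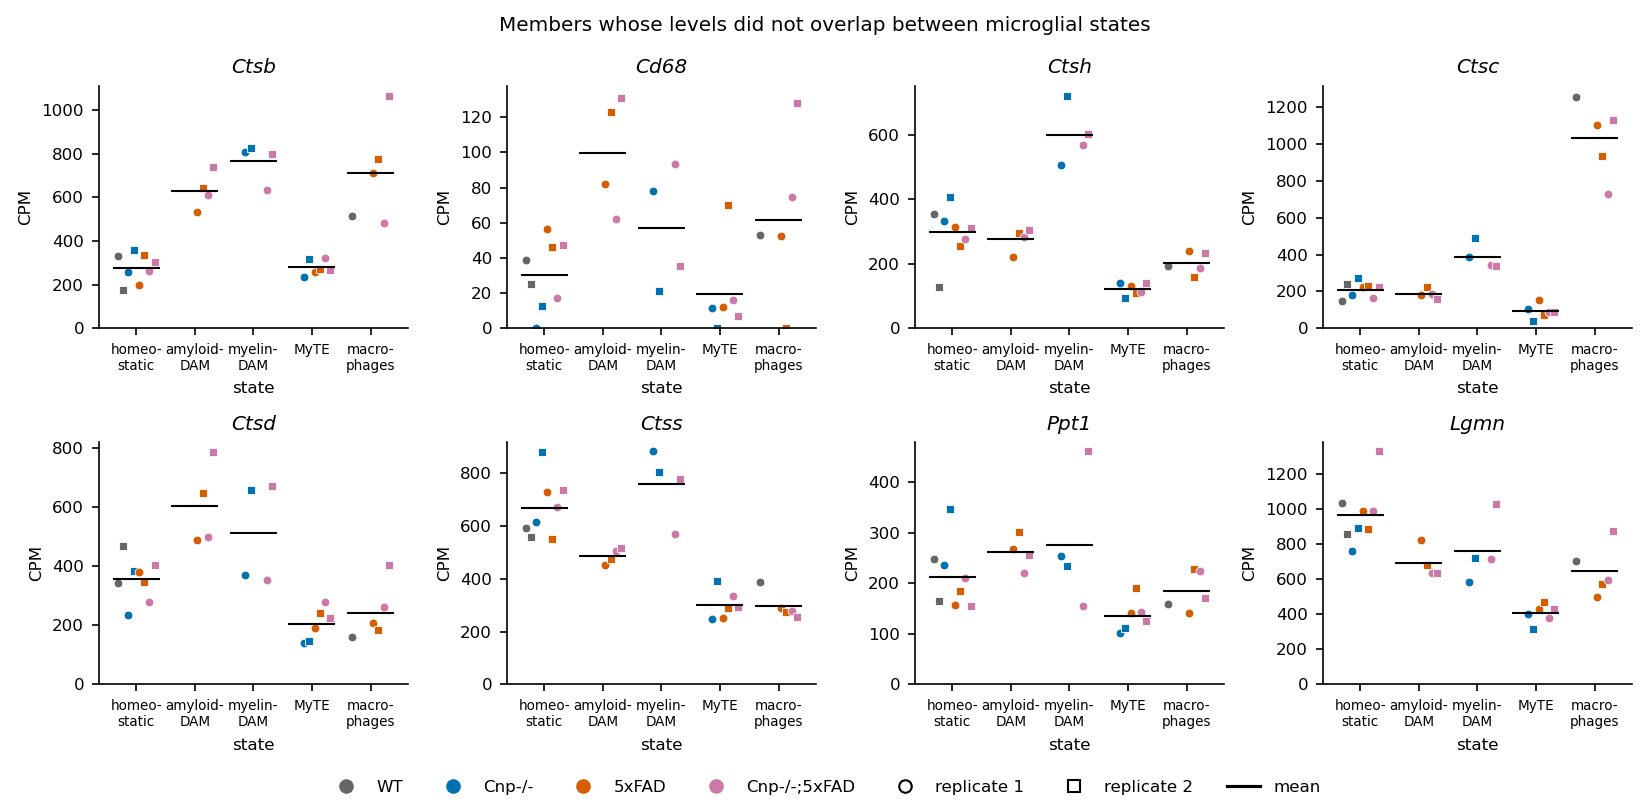
CPM per library of the 8 members with the largest fold changes among those without overlap in the comparisons of the DAM states, in homeostatic microglia, amyloid-DAM, myelin-DAM, MyTE and macrophages, with 1 point per library, colours for genotypes, shapes for replicates and a bar for the mean. Ctsb is higher in both DAM states and in macrophages than in homeostatic microglia, Ctsc and Ctsh are higher in myelin-DAM than in amyloid-DAM, and the mean of Lgmn is lowest in MyTE.

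In myelin-DAM, 3 of 25 members were higher than in homeostatic microglia without overlap (Ctsb, Ctsc and Ctsh; 7.13% of 2551 genes were) and 0 were lower (7.6% of genes were). The median log2 fold change was 0.35 over the members and -0.00 over all genes. Ctsb had 808 and 827 CPM in Cnp-/- and 632 and 797 in Cnp-/-;5xFAD libraries, against 259, 359, 261 and 304 in homeostatic microglia (1.35 ± 0.15). Ctsh, an aminopeptidase (chr9:90054152-90076089, plus strand), had 506, 721, 570 and 602 CPM in myelin-DAM and 332, 409, 278 and 311 in homeostatic microglia of the same libraries (0.83 ± 0.16). Ctsc (chr7:88278085-88310888, plus strand) had 389, 488, 342 and 337 against 178, 272, 164 and 223 CPM (0.89 ± 0.19). All 3 are cysteine cathepsins, and each was higher in myelin-DAM in every library. Of the 3 endothelial markers, Flt1 alone passed the filter on low counts, and it was higher without overlap. The 3 together summed to 337 to 549 CPM in myelin-DAM against 58.0 to 136 in homeostatic microglia, which does not show that the others rose. Of the 10 microglia markers, 7 were lower. Over the cell classes Ctsh was next highest in endothelial cells, with 167 CPM against 233 in microglia. Their part in the higher members was not tested. Within libraries, 8 of 25 members were higher in each of the 4 libraries (16.8% of genes were) and 2, Cst3 (-0.91 ± 0.21) and Lgmn, were lower in each (14.5% of genes were). Ctsd had 370, 658, 352 and 673 CPM in myelin-DAM, which overlapped with homeostatic microglia over libraries, although it was higher in each library (0.59 ± 0.17). Psap was also higher within each library (0.76 ± 0.16) but ranged from 170 CPM in Cnp-/- 2 to 704 in Cnp-/-;5xFAD 1, and homeostatic microglia of Cnp-/- 2 had 86.7 CPM against 362 to 381 in the other 3 libraries. Without Cnp-/- 2 the count of higher members was 5, with Psap and Cd63 added (12.5% of genes), and without Cnp-/-;5xFAD 2 it was 6, with Ctsa, Hexa and Tfeb added (11.6% of genes), and Lgmn was lower (11% of genes).

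Between the DAM states, 3 of 28 members were higher in myelin-DAM without overlap (Ctsh, Ctsc and Ctss; 5.47% of 3052 genes) and 0 were lower (4.39%). Ctsh was at 221, 296, 282 and 304 CPM in amyloid-DAM, below all 4 myelin-DAM values (1.07 ± 0.17). Ctsc was at 178, 223, 187 and 159 CPM in amyloid-DAM, within the range of homeostatic microglia (0.99 ± 0.20 for myelin-DAM against amyloid-DAM). Ctss was at 886 and 806 CPM in myelin-DAM of Cnp-/- and 570 and 780 of Cnp-/-;5xFAD libraries, all above amyloid-DAM at 453 to 518 CPM (0.60 ± 0.15). Ctsb did not separate the DAM states (0.24 ± 0.14), and Cd68 was at 77.9, 21.2, 93.2 and 35.4 CPM in myelin-DAM, overlapping with amyloid-DAM (-0.62 ± 0.43). Within the Cnp-/-;5xFAD libraries, where both states came from the same libraries, Ctsh was at 282 and 304 CPM in amyloid-DAM and 570 and 602 in myelin-DAM, and Ctsc at 187 and 159 against 342 and 337. The macrophage marker Ms4a7 was at 114 to 127 CPM in myelin-DAM, 5.58 to 14.3 in amyloid-DAM and 0 in homeostatic microglia, against 320 to 682 in macrophages, while Cd163, Lyve1, Pf4 and Cbr2 were at 0 in myelin-DAM and the 7 macrophage markers summed to 114 to 175 CPM there against 7459 to 9208 in macrophages. The endothelial marker Flt1 was also higher in myelin-DAM than in amyloid-DAM without overlap (1.13 ± 0.22), and the other endothelial markers did not pass the filter on low counts. The 3 together summed to 337 to 549 against 179 to 278 CPM, which does not show that the others rose. The part of the macrophage and endothelial markers was not tested. The count of 3 was 6 without Cnp-/- 2 (7.9% of genes), 5 without 5xFAD 1 (7.11%) and 5 without Cnp-/-;5xFAD 2 (10.7%). Without Cnp-/-;5xFAD 1, Cd68 was lower (8.51% of genes), and without Cnp-/-;5xFAD 2, Cst3 was (8.36%).

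**Figure D3:**
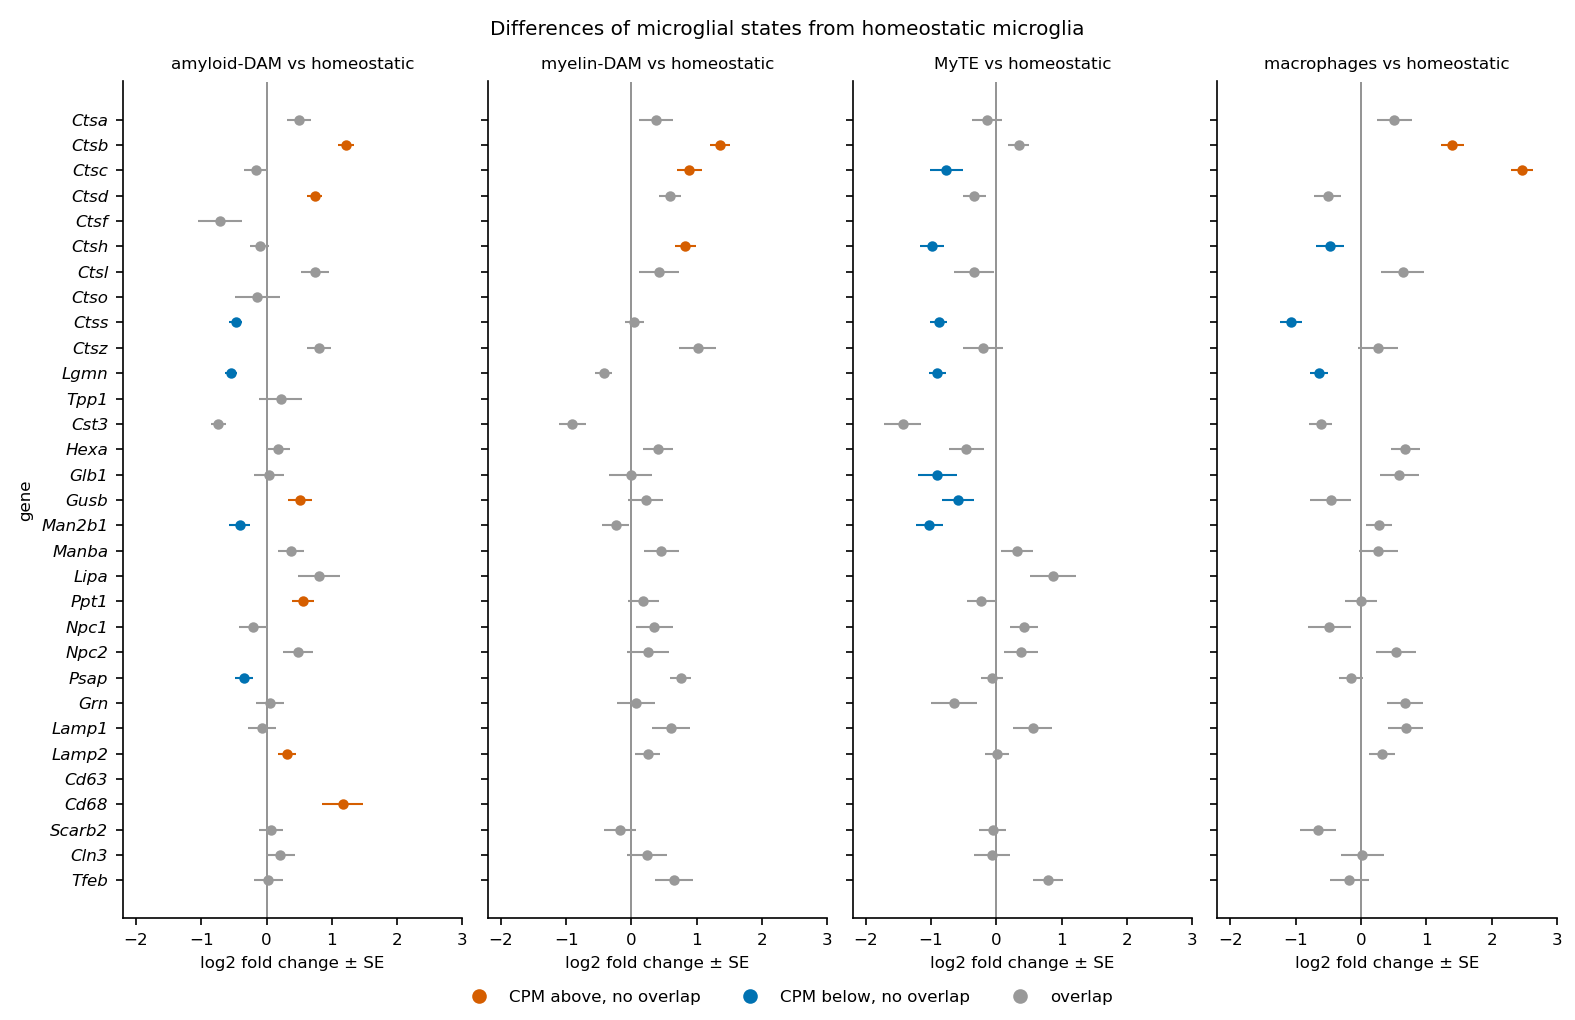
Log2 fold change ± SE (x axis) of each member (rows) in amyloid-DAM, myelin-DAM, MyTE and macrophages against homeostatic microglia, with levels that did not overlap in orange (higher) or blue (lower). In the myelin-DAM panel Ctsb stands highest at 1.35 and Cst3 lowest at -0.91, and Ctsh and Ctsc, at 0.83 and 0.89 there, are at -0.11 and -0.16 in amyloid-DAM.

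These counts shrank when profiles with at least 5 nuclei were admitted, which brought in more libraries with fewer nuclei: 1 member (Ctsb) was then higher in each DAM state than in homeostatic microglia, and 0 members separated the DAM states. Of the share of genes without overlap, 2.05% were then higher in amyloid-DAM, 2.31% in myelin-DAM, and 0.461% in myelin-DAM against amyloid-DAM.

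In MyTE, 0 of 26 members were higher than in homeostatic microglia without overlap (13.8% of 3561 genes were) and 7 were lower: Ctss, Lgmn, Ctsh, Ctsc, Man2b1, Glb1 and Gusb (21.6% of genes were). The 7 of 26 lower members thus lay near the share of all genes that were lower. Lgmn was at 316 to 472 CPM in MyTE against 762 to 1331 in homeostatic microglia of the 6 libraries (-0.90 ± 0.13), Ctss at 248 to 390 against 551 to 879 (-0.88 ± 0.13) and Man2b1 at 60.3 to 154 against 210 to 340 (-1.02 ± 0.20). Glb1, the β-galactosidase whose promoter is shown above, was at 18.6 to 67.6 against 81.2 to 142 CPM (-0.90 ± 0.30). At these levels Glb1 could pass the filter on low counts through homeostatic microglia alone. Its place among the lower members is therefore a description that the filter helped to set. By means over nuclei, Glb1 overlapped between MyTE and homeostatic microglia. Ctsb was at 236 to 323 CPM, inside the homeostatic range (0.34 ± 0.16). The other members overlapped between MyTE and homeostatic microglia, with log2 fold changes from -1.43 ± 0.28 for Cst3 to 0.87 ± 0.35 for Lipa, the acid lipase. MyTE nuclei, with the oligodendrocyte marker levels given above, had a median of 2097 to 3565 UMIs per nucleus against 1012 to 1594. How far oligodendrocyte transcripts set the lower shares of members was not tested.

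In macrophages, 2 of 25 members were higher (Ctsc and Ctsb; 7.7% of 3247 genes were) and 3 lower (Ctss, Lgmn and Ctsh; 13.5% of genes were). Both counts thus lay near the shares of all genes. Ctsc had the widest difference of any member in these comparisons, with 1255 CPM in WT 1, 1106 and 938 in 5xFAD and 726 and 1130 in Cnp-/-;5xFAD libraries against 145 to 232 in homeostatic microglia of these libraries (2.46 ± 0.17). Ctsb was at 484 to 1066 against 198 to 336 CPM (1.40 ± 0.18). Ctss was at 256 to 389 against 551 to 736 CPM (-1.07 ± 0.17), while Ctsh was at 160 to 239 against 255 to 354 (-0.48 ± 0.21). Ctsh and Ctsc, both higher in myelin-DAM than in homeostatic microglia, thus differed from homeostatic microglia in opposite directions in macrophages. By means over nuclei, Ctsh overlapped between macrophages and homeostatic microglia. The count of higher members was 4 without 5xFAD 1 (10.4% of genes) and 5 without 5xFAD 2 (10.6%). That of lower members was 5 without Cnp-/-;5xFAD 2 (15.2%). When profiles of at least 5 nuclei were admitted, 2 members were higher (5.88% of genes) and 0 were lower (9.75%).

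Summed over the 39 members, the share of UMIs was 0.714% ± 0.098 in homeostatic microglia (n = 8), 0.737% ± 0.057 in amyloid-DAM (n = 4), 0.852% ± 0.060 in myelin-DAM (n = 4), 0.420% ± 0.047 in MyTE (n = 6) and 0.750% ± 0.111 in macrophages (n = 5). Against homeostatic microglia of the same libraries, the log2 ratio of means was 0.04 for amyloid-DAM, 0.32 for myelin-DAM and 0.08 for macrophages, all with overlapping libraries, and -0.72 for MyTE without overlap. Myelin-DAM lay above amyloid-DAM without overlap, at 0.807% to 0.941% against 0.665% to 0.804%, but they overlapped by means over nuclei and without Lgmn, the member with the most UMIs. Under both of these settings myelin-DAM lay above homeostatic microglia without overlap. The 11 cathepsins took 0.256%, 0.305%, 0.274% and 0.336% of UMIs in amyloid-DAM of 5xFAD 1, 5xFAD 2, Cnp-/-;5xFAD 1 and Cnp-/-;5xFAD 2, against 0.234%, 0.239%, 0.207% and 0.258% in homeostatic microglia of these libraries. In myelin-DAM they took 0.354%, 0.428%, 0.297% and 0.413% in Cnp-/- 1, Cnp-/- 2, Cnp-/-;5xFAD 1 and Cnp-/-;5xFAD 2, against 0.203%, 0.291%, 0.207% and 0.258%. The cathepsins were thus higher in each library, without overlap in myelin-DAM and with overlap in amyloid-DAM. Lgmn, Tpp1 and Cst3 together were lower in each of these libraries with overlap, at 0.0926% to 0.136% in amyloid-DAM against 0.134% to 0.249%, and at 0.0662% to 0.168% in myelin-DAM against 0.0965% to 0.249%. Because the members were chosen with earlier results known, no test was made on these sums.

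**Figure D4:**
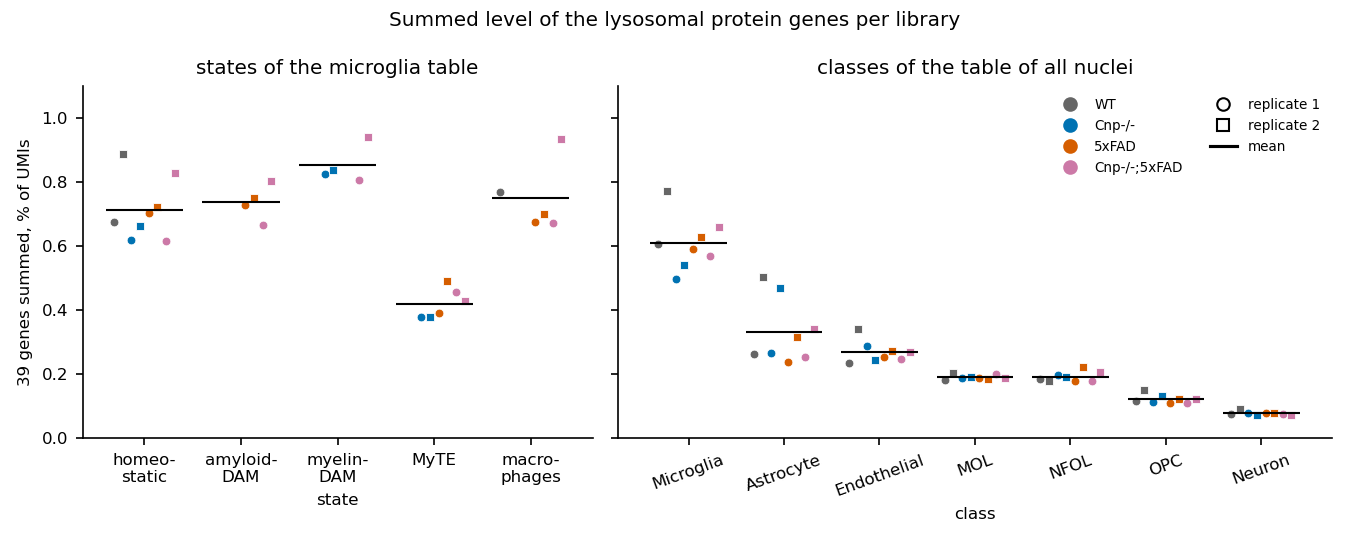
Summed level of the 39 members in percent of UMIs, 1 point per library coloured by genotype, for the microglial states and the cell classes, shapes for replicates and a bar for the mean. MyTE lies at 0.377% to 0.490%, below the other microglial states, and MOL at 0.182% to 0.202%.

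Other genes of the pathway, not members, were read in the same way. Of 46 further lysosomal genes, 19 passed the filter in amyloid-DAM and 3 were higher without overlap, to be read against the 6.79% of all genes: Gnptab, which adds the mannose 6-phosphate tag (1.39 ± 0.23), Slc11a1, a metal transporter (0.60 ± 0.20), and Galc, which degrades the myelin lipid galactosylceramide (0.51 ± 0.24). In myelin-DAM 2 of 14 were higher (7.13% of genes), Galc (1.15 ± 0.30) and Gnptab (1.01 ± 0.31). Among V-ATPase subunits, which acidify the lysosome, 1 of 11 was lower in amyloid-DAM (7.69% of genes), Atp6v0a2 (-0.93 ± 0.21). In myelin-DAM 1 of 8 was lower (7.6% of genes), again Atp6v0a2 (-1.83 ± 0.31), and 1 was higher (7.13%), Atp6v1b2 (1.11 ± 0.25). In MyTE 4 of 9 were lower (21.6% of genes), Tcirg1, Atp6v0a2, Atp6v0a1 and Atp6v1c1, from -0.87 ± 0.18 to -0.37 ± 0.22, and in macrophages 1 of 10 was lower (13.5% of genes), Tcirg1 (-1.30 ± 0.29). Mitf, the relative of Tfeb, was higher in both, at 988 to 1412 against 595 to 784 CPM in amyloid-DAM (0.80 ± 0.09) and 1315 to 1754 against 634 to 784 CPM in myelin-DAM (1.11 ± 0.12). Tfeb itself had log2 fold changes of 0.03 ± 0.22 and 0.65 ± 0.29 with overlap. In MyTE, 7 of 18 further lysosomal genes were lower (21.6% of genes), among them Arsb, a sulfatase (-0.90 ± 0.17). Another 2 of 18 were higher (13.8% of genes), Abca2 (4.97 ± 0.44) and Sort1 (1.58 ± 0.21). The filter on low counts can let a gene in through the state where it is high, so these counts are descriptions. The part of oligodendrocyte transcripts in the 2 higher genes was not tested. In macrophages Arsb was lower (-0.83 ± 0.19) and Hgsnat higher (2.90 ± 0.35).

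Genotypes were then compared over libraries with edgeR's quasi-likelihood test, adjusted by Benjamini-Hochberg over all genes tested (threshold 0.05). Shares of genes below refer to the adjusted p. Counts of members with an unadjusted p under 0.05 have no share of all genes beside them, and some are expected where nothing differs. In all microglia without macrophages, 1 of 34 members changed with Cnp loss (4 libraries without Cnp against 4 with it), among 1.59% of 8185 genes: Cst3 (chr2:148871722-148875692, minus strand) fell by 2.35 ± 0.46 on the log2 scale (adjusted p = 0.0387). It had 746 and 2854 CPM in WT, 455 and 703 in 5xFAD, 96.7 and 63.7 in Cnp-/- and 219 and 627 in Cnp-/-;5xFAD libraries. The Cnp-/- libraries were lowest, but Cnp-/-;5xFAD 2 lay between both 5xFAD libraries, and the WT libraries were far apart. The adjusted p ranged from 1.48e-47 with no filter to 0.180 without MyTE nuclei. When any 1 library was left out the log2 fold change stayed between -2.82 and -1.78. The call was lost without WT 2 (adjusted p = 0.0583), Cnp-/- 1 (0.113), Cnp-/- 2 (0.0924), 5xFAD 1 (0.0686) or 5xFAD 2 (0.104), without MyTE nuclei, with macrophages included (0.0607) and in the microglia of the all-nuclei annotation (0.0824). The states that made up all microglia differed by genotype. Homeostatic microglia were 155 of 168 and 48 of 51 nuclei in WT, and 106 of 262 and 64 of 125 in Cnp-/- libraries, where myelin-DAM gave 83 and 36 and MyTE 59 and 20 nuclei. In MyTE Cst3 was at 67.6 to 362 CPM. Markers moved with Cnp loss as well: all 7 oligodendrocyte markers had a positive log2 fold change (median 0.87, with St18 and Mog past the threshold), and all 10 microglia markers a negative one (median -0.41, with Siglech past it). Their part in the fall of Cst3 was not tested.

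**Figure D5:**
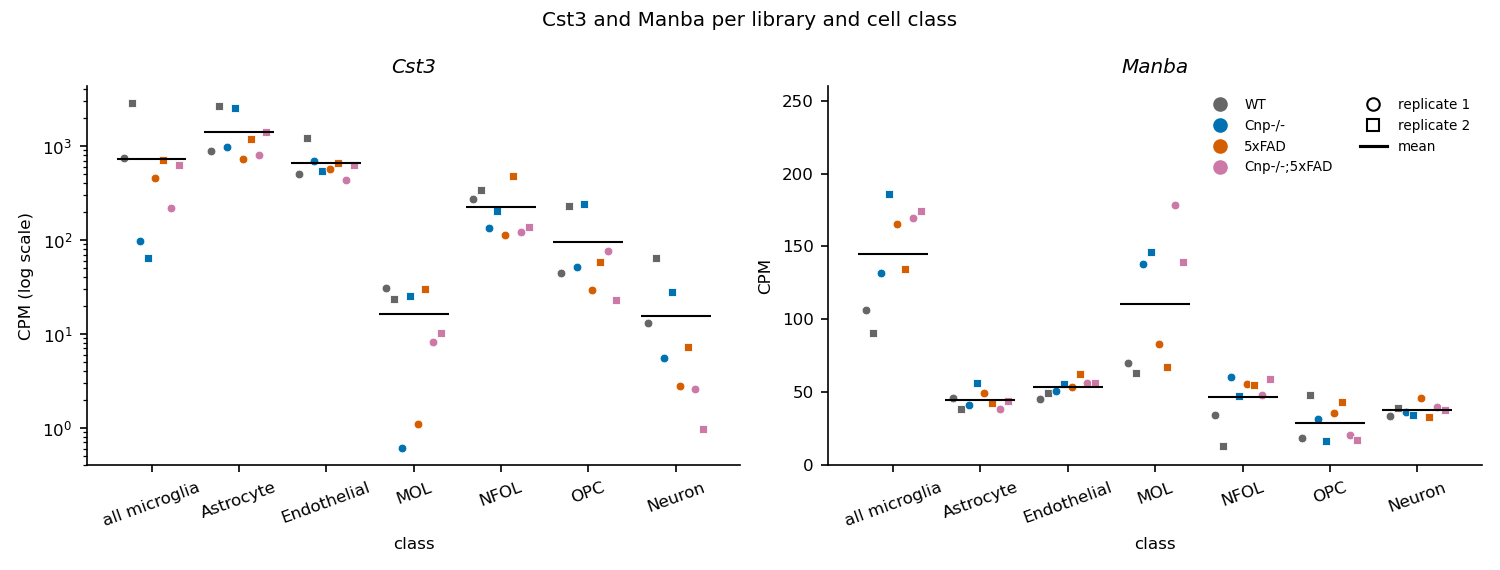
CPM per library of Cst3 (left, log scale) and Manba (right) in all microglia and the other cell classes, with 1 point per library, colours for genotypes, shapes for replicates and a bar for the mean of 8 libraries. Cst3 spans 63.7 to 2854 CPM in all microglia, and in MOL the Manba values of the Cnp-/- and Cnp-/-;5xFAD libraries, 138 to 179 CPM, lie above those of the others.

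Cst3 also varied between libraries outside microglia. In astrocytes it had 887 and 2695 CPM in WT, 974 and 2549 in Cnp-/-, 724 and 1201 in 5xFAD and 812 and 1414 in Cnp-/-;5xFAD libraries, replicate 2 being the higher in each genotype. Apoe and Clu, which are not members, were also higher in replicate 2 of each genotype in astrocytes. Apoe was at 2065 and 5037 CPM in WT and 1362 and 2387 in 5xFAD libraries. Aldoc did not follow this order in 5xFAD (276 and 238 CPM), nor Slc1a2 in WT (6572 and 6466 CPM). The 5 astrocyte markers summed to 4.1 to 143 CPM in all microglia, with 143 CPM in Cnp-/- 2, where Cst3 was lowest. In MyTE of Cnp-/- 2 they summed to 502 CPM. In homeostatic microglia they summed to 0 and 25.3 CPM in WT and 0 and 0 in Cnp-/- libraries. There they summed to 4.05 and 29.0 CPM in 5xFAD and 28.3 and 54.0 in Cnp-/-;5xFAD libraries. Their part in the levels of Cst3 was not tested. In homeostatic microglia Cst3 had 785 and 3025 CPM in WT, 178 and 49.5 in Cnp-/-, 672 and 1096 in 5xFAD and 283 and 1094 in Cnp-/-;5xFAD libraries, and in myelin-DAM 38.9 and 21.2 in Cnp-/- and 207 and 602 in Cnp-/-;5xFAD libraries, so the Cnp-/- libraries were lowest in both states. In amyloid-DAM the Cnp-/-;5xFAD values of 220 and 663 CPM lay on either side of 446 and 519 in 5xFAD. In macrophages Cst3 was at 389 CPM in WT 1, 336 and 572 in 5xFAD and 428 and 703 in Cnp-/-;5xFAD libraries, without an order by Cnp loss. The differences did not pass the test in homeostatic microglia (-2.12 ± 0.55, adjusted p = 0.530) or in myelin-DAM of Cnp-/-;5xFAD against Cnp-/- (3.44 ± 0.96, adjusted p = 0.598).

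With 5xFAD, 0 of 34 members passed the test in all microglia (0.415% of genes did, 3 members had an unadjusted p under 0.05, and DESeq2 called 0). Those 3 were Cd68 (1.02 ± 0.38, adjusted p = 0.361), Lamp2 (0.42 ± 0.18, 0.458) and Scarb2, a receptor that carries β-glucocerebrosidase to lysosomes (-0.44 ± 0.16, 0.375). Cd68 was at 41.0 and 22.7 CPM in WT, 25.9 and 21.2 in Cnp-/-, 56.1 and 80.5 in 5xFAD and 42.7 and 58.9 in Cnp-/-;5xFAD libraries, so that each library with the transgenes lay above each without. The nearest values were 42.7 and 41.0 CPM, and the WT 2 profile held 88299 UMIs in all, so its level rests on few UMIs. The share of all genes with this order of libraries was not counted. For the interaction, 0 of 34 members passed (0.0977% of genes did), 1 had an unadjusted p under 0.05, and DESeq2 called 1, among 0.819% of genes (Cst3, 3.8 ± 0.92 and adjusted p = 0.219 by edgeR). The median log2 fold change of the members was 0.03 with Cnp loss and 0.13 with 5xFAD, against 0.03 and 0.06 over all genes.

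Within homeostatic microglia, 0 of 29 members passed with Cnp loss (0.11% of genes did) and 0 with 5xFAD (0.0657%), 1 in each had an unadjusted p under 0.05, and DESeq2 called 0 in each. Within amyloid-DAM, 0 of 29 members and 0% of genes differed between Cnp-/-;5xFAD and 5xFAD, with 0 members under an unadjusted p of 0.05. Within myelin-DAM, 0 of 29 members and 0% of genes differed between Cnp-/-;5xFAD and Cnp-/-, with Cst3 alone under an unadjusted p of 0.05, and DESeq2 called 0 members in either. Median log2 fold changes of the members there were -0.04 and 0.07. The summed share was 0.633% over Cnp-deficient and 0.706% over the other libraries in all microglia, with overlap and with the unequal mix of states given above (MyTE, with a share of 0.420%, gave 59 of 262 nuclei in Cnp-/- 1 and 11 of 168 in WT 1), and 0.664% with against 0.674% without the 5xFAD transgenes.

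In MOL, 1 of 29 members changed with Cnp loss, among 0.765% of 8761 genes: Manba, the lysosomal β-mannosidase (chr3:135485611-135571404, plus strand), rose by 1.15 ± 0.16 (adjusted p = 0.0326). It had 69.9 and 63.4 CPM in WT, 83.2 and 67.2 in 5xFAD, 138 and 146 in Cnp-/- and 179 and 140 in Cnp-/-;5xFAD libraries, with no overlap between Cnp-deficient libraries and the others. The share of all genes in MOL with this order of libraries was not counted. In microglia of the all-nuclei annotation Manba was at 111 to 157 CPM across genotypes. The adjusted p ranged from 2.01e-06 by DESeq2 to 0.139, and with replicate number as a block it was 0.0579. It missed the threshold without WT 1 (0.0903), WT 2 (0.139), Cnp-/- 2 (0.0785), 5xFAD 1 (0.109), 5xFAD 2 (0.126), Cnp-/-;5xFAD 1 (0.110) or Cnp-/-;5xFAD 2 (0.108), with a log2 fold change between 1.07 and 1.26 when any 1 library was left out. With 5xFAD, 0 of 29 members and 0% of genes passed in MOL, 1 member had an unadjusted p under 0.05, and DESeq2 called 0.

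In the remaining classes no member passed edgeR's test. With Cnp loss the share of genes that passed was 0% in astrocytes, 0.0425% in endothelial cells, 0.0185% in neurons, 1.6% in NFOL and 0% in OPC, and 1 of 35, 0 of 35, 3 of 39, 3 of 28 and 3 of 29 members had an unadjusted p under 0.05. With 5xFAD the share was 0% in each of these 5 classes, and 0, 3, 4, 1 and 1 members had an unadjusted p under 0.05. These counts of members cannot be compared with the shares of genes, which refer to the adjusted p. DESeq2 called 3 member changes in these classes, all in neurons: Gaa with Cnp loss, among 0.839% of genes it called, and Cst3 and Cd63 with 5xFAD, among 2.34%. Neuronal Gaa had 30.1 and 33.4 CPM in WT, 29.7 and 31.0 in 5xFAD, 24.1 and 22.3 in Cnp-/- and 25.1 and 22.1 in Cnp-/-;5xFAD libraries, without overlap between Cnp-deficient and other libraries (-0.34 ± 0.07, adjusted p = 0.474 by edgeR). The share of all genes in neurons with this order of libraries was not counted. Neuronal Cst3 had 13.2 and 65.0 CPM in WT, 5.50 and 28.0 in Cnp-/-, 2.76 and 7.20 in 5xFAD and 2.60 and 0.979 in Cnp-/-;5xFAD libraries (-3.07 ± 0.73, adjusted p = 0.280 by edgeR), with the lowest libraries carrying the transgenes but 5xFAD 2 above Cnp-/- 1. Markers of other cell types were also lower with 5xFAD in neurons: all of the 5 astrocyte, 7 oligodendrocyte, 3 endothelial and 3 pericyte markers had a negative log2 fold change, with medians of -1.29, -0.74, -1.94 and -2.45 and 0 past the threshold. Their part in the difference of Cst3 was not tested. Of the other factors and pathway genes, Mitf alone passed edgeR's test in a genotype comparison: it rose with Cnp loss in all microglia (0.67 ± 0.11, adjusted p = 0.0180) and in NFOL (0.70 ± 0.16, adjusted p = 0.0364). Markers moved with it: in all microglia 2 of 6 tested DAM markers and 2 of 7 oligodendrocyte markers also rose with Cnp loss. So did Flt1, which was 1 of 2 tested endothelial markers, while Siglech fell. In NFOL 3 of 7 oligodendrocyte markers rose and 1 of 5 astrocyte markers, Aldh1l1, fell (median -0.82 over the 5), while the 6 tested microglia markers had a median log2 fold change of 0.76 with 0 past the threshold. Their part in the rise of Mitf was not tested.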

How the data were processed

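The deposited tables hold raw UMI counts per gene and nucleus, not normalized, 1 for all nuclei and 1 for microglia and macrophages, with the authors' annotation of cell types and states. The authors aligned reads with Cell Ranger (version 6.1.2 and build mm10 in the submitters' processing notes), removed ambient transcripts with CellBender, filtered nuclei and clustered them with Seurat. The lowest nucleus had 501 UMIs and 301 genes. Whether intronic reads were counted and how doublets were treated is not given in the sources used here. Of 61494 distinct barcode strings, 454 occurred in at least 2 libraries, and 0 of the 2291 in the table of microglia did. There were 0 columns of samples left unused.

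Counts were summed per library over each cell type and each state with at least 20 nuclei in a library. Other classes were tested where all 8 libraries reached that number, so pericytes were left out. Genes were filtered with filterByExpr, scaled by TMM and fitted with 1 mean per genotype in edgeR 4.0.16 (R 4.3.3), with the two-sided quasi-likelihood test and a Benjamini-Hochberg threshold of 0.05 over all genes. Cnp loss compares the mean of Cnp-/- and Cnp-/-;5xFAD with that of WT and 5xFAD, and 5xFAD likewise. States were fitted with library as a block, except myelin-DAM against amyloid-DAM, where 2 libraries gave a profile to each. Counts of genes on 1 side in each library were added after seeing the data. Each summed profile has its own depth, and sums of few nuclei are the least precise. Fits were tested on simulated data. The alternatives were DESeq2 size factors, no filter, DESeq2 1.42.0, the replicate number as a block, at least 5 nuclei, means over nuclei, nuclei with at least 1000 UMIs, the sum without its most abundant member, other sets of microglia, and each library left out.

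The 39 members and the further lists were chosen with earlier results of these data known. Values per library are given for members past the threshold in a genotype comparison and for the 8 members with the largest fold change among those without overlap in the comparisons of DAM states; other members are named with ranges or fold changes. Gene positions are those of GENCODE for GRCm38, and promoter sequences and start sites those of RefSeq for GRCm38.p6.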

Additional observations from a re-analysis of the deposited data

How the results depend on the processing

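Each genotype was represented by 2 libraries and each state by few nuclei, and the smallest difference that could be detected was not measured. Of 710 pairs of a result and an alternative, most were counts of members or summed levels, and direction was not judged for counts or for sums with overlap. The pairs for single members covered Cst3 and Manba in the genotype comparison that each passed, and members without overlap between states. None of these single members changed direction, and the other members named above were not in this check. Summed levels between genotypes whose libraries overlapped did cross 0, such as Cnp loss in astrocytes (log2 ratio 0.01, and -0.20 to 0.29 with 1 library left out) and 5xFAD in all microglia (-0.02, and -0.10 to 0.11). In all microglia the count of 1 member changed with Cnp loss was 0 without MyTE nuclei, in microglia of the all-nuclei annotation and with macrophages included, the last chosen after seeing the data. With no filter on low counts, 1 member (Cst3) passed for the interaction in all microglia (0.678% of all genes did), for Cnp loss (0.167%) and for 5xFAD (0.371%) in homeostatic microglia, for Cnp loss in NFOL (1.76%), for 5xFAD in OPC (0.549%) and within myelin-DAM (0.0696%), 2 (Cst3 and Cd63) passed for 5xFAD in astrocytes (1.55%) and 2 (Manba and Ctsh) for Cnp loss in MOL (2.63%). DESeq2 called 1 member for the interaction (Cst3, 0.819% of genes), 1 for Cnp loss in neurons (Gaa, 0.839%) and 2 for 5xFAD in neurons (Cst3 and Cd63, 2.34%). The cause of these differences was not tested.

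With profiles of at least 5 nuclei, 1 member was higher (2.05% of genes) and 0 lower (2.92%) in amyloid-DAM, and 1 was higher in myelin-DAM (2.31%). In macrophages 2 were higher (5.88%) and 0 lower (9.75%). In myelin-DAM 0 were higher than in amyloid-DAM (0.461%). The summed level of amyloid-DAM against homeostatic microglia moved from 0.04 to 0.13 (log2) without Lgmn. When 1 library was left out, counts ranged from 0 to 1 for Cnp loss in all microglia, in homeostatic microglia (1 without WT 1), in MOL and in NFOL (1 without 5xFAD 1) and within myelin-DAM (1 without Cnp-/-;5xFAD 1). Counts of higher members ranged from 4 to 6 in myelin-DAM (10.2% to 12.5% of genes). They were 2 to 5 in macrophages (9.89% to 10.6%) and 3 to 6 in myelin-DAM against amyloid-DAM (6.86% to 10.7%). In the same order, counts of lower members were 0 to 1 (10.6% to 11.8%), 3 to 5 (15.2% to 16.9%) and 0 to 1 (5.14% to 8.51%). Fewer libraries leave fewer values that can overlap, and all these shares of genes lay above those with every library. The summed levels were left out library by library only after seeing the data.

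The labels give no shared origin for equal replicate numbers, and in no cell class were the deviations of libraries of the same number correlated above 0.1 in all 6 pairs. They were in 1 of 6 pairs in all microglia (-0.02 to 0.11), 5 of 6 in astrocytes (-0.01 to 0.16) and 1 of 6 in MOL (-0.16 to 0.25) and neurons (-0.27 to 0.40), so the numbers were not taken as pairs. With the replicate number as a block, 0 members passed for Cnp loss in MOL, where Manba had an adjusted p of 0.0579, and the other counts of genotype comparisons did not move.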

Other observations

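The annotation of all nuclei called 2472 nuclei microglia, of which 181 were not in the authors' table of microglia and macrophages. These 181 had a median of 3880 UMIs against 1327 in the 2291 nuclei of that table. The members took 0.308% of their UMIs against 0.661%, and the microglia markers 0.182% against 0.643%. Oligodendrocyte markers took 0.421% against 0.263%, and neuron markers 0.0633% against 0.000405%.

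Grn, which encodes progranulin, was at 19.9 and 20.1 CPM in MOL of WT, 12.2 and 7.32 in Cnp-/-, 1.67 and 1.12 in 5xFAD and 3.31 and 0 in Cnp-/-;5xFAD libraries. Each library with the 5xFAD transgenes lay below each without, with a log2 fold change of -3.10 ± 0.93, but edgeR gave an adjusted p of 1.00 over all genes, and 76 UMIs in all stood behind these values. Scarb2 in all microglia was at 266 and 249 CPM in WT, 196 and 233 in Cnp-/-, 194 and 163 in 5xFAD and 179 and 152 in Cnp-/-;5xFAD libraries, again with every library of the transgenes below every other, and its adjusted p with 5xFAD was 0.375. For neither Grn nor Scarb2 was the share of all genes with this order of libraries counted.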
